A study of Mus musculus with 6 samples.

Results

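The bone morphogenetic protein (BMP) genes described here were Bmp2 and Bmp4, which encode ligands, the receptor genes Bmpr1a and Bmpr2, the antagonist genes Grem1, Nog and Fst, the follistatin-like gene Fstl1, and Bmp1, which carries the family name but encodes a protease. They were taken by name through the gene annotation, from a list drawn up with earlier results of these data known, and all 9 were found among the 56953 genes of the table. The study sequenced poly-A RNA of mouse embryonic fibroblasts (MEFs), cultured connective tissue cells, with 3 biological replicates labelled WT and 3 labelled GαqKO. The GαqKO MEFs were Gαq/11 knockout cells, which were made to lack the G protein subunits Gαq and Gα11 that link many cell surface receptors to phospholipase C beta. Both lines came from the same outside laboratory, both were grown in medium with fetal bovine serum, and no BMP or antagonist is named among the additions to the medium. Because 1 line of each genotype is named, the missing G proteins and any other difference between the lines cannot be told apart.

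BMPs are secreted dimers that bring type I receptors, such as BMPR1A, together with the type II receptor BMPR2, after which the receptor phosphorylates SMAD1, SMAD5 and SMAD9, and these enter the nucleus with SMAD4. The signal is limited outside the cell by secreted proteins that bind the ligand and keep it from its receptor, of which gremlin 1, noggin and follistatin are well studied, and inside the cell by SMAD6 and SMAD7. In fibroblasts and other mesenchymal cells the pathway is known for steering cells towards bone, cartilage and fat, and gremlin 1 is known as a product of stromal cells around tumors.

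Values are normalized counts, which are reads per gene divided by a single size factor for each library, and they summed to between 11392429 and 11483486 per library. In 5 libraries the reads behind them could be recovered and ranged from 9853000 to 12229175. A gene was tested when 3 libraries or more reached 10 normalized counts, which left 14096 genes, and the test was limma on log2(normalized count + 1) with Benjamini-Hochberg adjustment over those genes. Calls used 2 thresholds, an adjusted p under 0.05 and, with it, a log2 fold change over 1 or under -1. Gnaq, the gene of Gαq, was not lower in the libraries labelled GαqKO, with 1926 ± 36.0 against 1691 ± 48.5 normalized counts (SD, n = 3 each), whereas Gna11, the gene of Gα11, went from 2148 ± 29.0 to 451.6 ± 28.7, so the libraries are named by their labels throughout.

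In the libraries labelled GαqKO the genes of 2 antagonists were far higher and most other BMP genes were lower. Grem1 was 82.7-fold and Fst 28.8-fold higher than in WT, whereas Bmp4 was 3.64-fold, Fstl1 1.84-fold and both receptors and Bmp1 less than 1.5-fold lower. Bmp2 and Nog were low in WT and at or near 0 in the libraries labelled GαqKO. In none of the 9 genes did the WT and GαqKO values overlap. How often this held among all genes was not counted, so it does not set these genes apart.

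The filter on low values was passed by 7 of the 9 genes, and Bmp2 and Nog were not tested. At an adjusted p under 0.05 (limma), 2 of the 7 tested genes were higher and 5 were lower in GαqKO than in WT libraries. These were 28.6% and 71.4%, against 31.8% and 34.1% of all tested genes. Past both thresholds 2 were higher (28.6%), Grem1 and Fst, and 1 was lower (14.3%), Bmp4, against 10.2% and 10.5% of all tested genes. The median log2 fold change of the 7 tested genes was -0.43, and that of all tested genes was -0.012. Since calls at the adjusted p alone were that frequent among all genes, they set none of these genes apart, and the sizes of the changes differed far more than the calls.

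**Figure D1:**
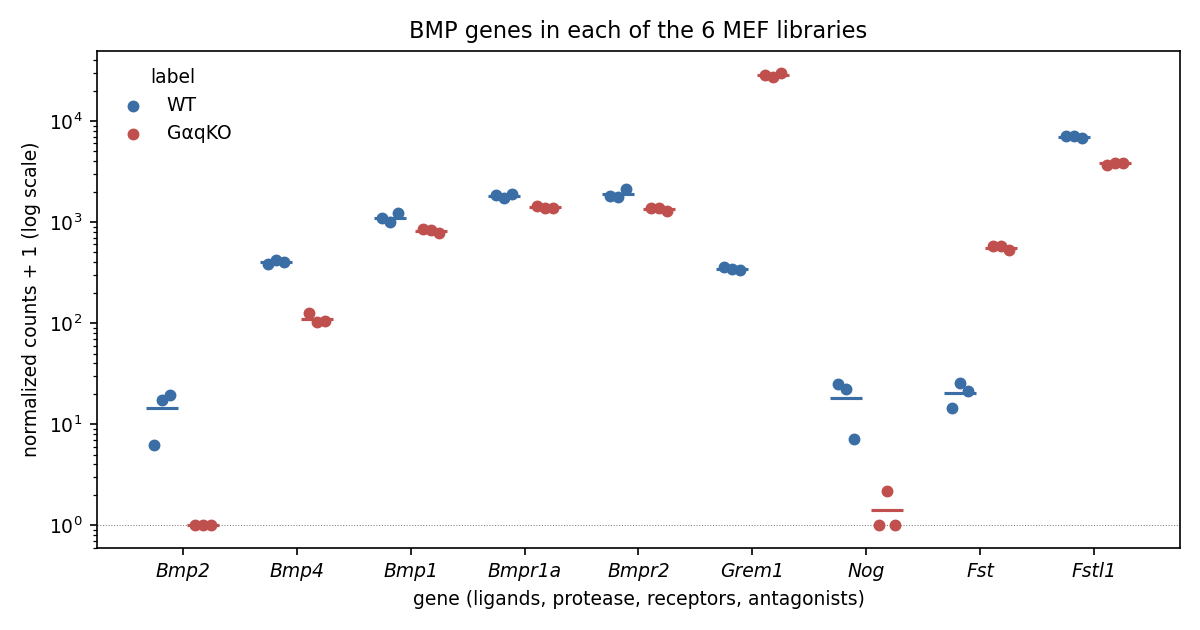
Normalized counts + 1 (log axis) of the 9 BMP genes in each of the 3 WT and 3 GαqKO libraries, with 1 point per library and a bar at the group mean. The GαqKO points of Grem1 lie between 27473 and 29633 and those of WT between 333.9 and 359.2.

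Promoter sequence is shown for Grem1, the antagonist gene that rose most, and for Bmp4, the ligand gene that was tested and fell, as the 250 bases before the annotated start, read 5′ to 3′ on the strand of the gene from RefSeq on GRCm38.p6. Capitals mark 2 motifs that SMAD proteins are known to bind, GGCGCC, a GC-rich SMAD1/5 motif, and GTCT, the SMAD box, which appears as AGAC where it lies on the other strand. The Grem1 promoter was chr2:113758649-113758898 on the minus strand and the Bmp4 promoter chr14:46390670-46390919 on the minus strand.
Grem1: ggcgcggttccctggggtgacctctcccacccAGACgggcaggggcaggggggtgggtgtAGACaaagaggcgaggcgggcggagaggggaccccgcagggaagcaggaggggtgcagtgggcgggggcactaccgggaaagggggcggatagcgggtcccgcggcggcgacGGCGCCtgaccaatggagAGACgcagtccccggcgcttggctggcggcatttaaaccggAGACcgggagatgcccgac
Bmp4: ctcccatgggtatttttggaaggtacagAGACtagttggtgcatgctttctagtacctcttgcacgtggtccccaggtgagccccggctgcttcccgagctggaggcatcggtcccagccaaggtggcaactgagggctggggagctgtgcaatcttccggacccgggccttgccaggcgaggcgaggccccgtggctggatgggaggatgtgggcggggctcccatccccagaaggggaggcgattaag
The Grem1 promoter held 1 GGCGCC, 78 bases before the start, and 4 GTCT motifs, in a sequence of 72.0% G and C. The Bmp4 promoter held no GGCGCC and 1 GTCT, in a sequence of 63.2% G and C. Of the other BMP genes with a promoter in the RefSeq table, Bmpr1a and Bmpr2 each held 1 GGCGCC and no GTCT, and Fstl1 held no GGCGCC and 3 GTCT. Among all 32851 promoters of that table, searched over the same length on both strands, 9.6% held GGCGCC and 82.9% held GTCT, and the median share of G and C was 52.4%. A GTCT is thus found in most promoters of this length, and a match describes the letters only.

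Bmp4 (ENSMUSG00000021835.16; GRCm39 chr14:46620250-46636745, minus strand) encodes a secreted BMP ligand and had the most normalized counts of the ligand genes. It had 381.1, 417.7 and 401.0 normalized counts in WT replicates 1, 2 and 3 and 124.0, 101.7 and 103.7 in GαqKO replicates 1, 2 and 3. Every GαqKO library was below every WT library, and within each genotype the 3 libraries were close together. The means were 400.0 ± 18.3 and 109.8 ± 12.3 (SD, n = 3), and Bmp4 fell by a log2 fold change of -1.86 (SE 0.11, 95% confidence interval -2.09 to -1.63, adjusted p = 3.05e-09 in limma). This was the 868th largest fall among the 14096 tested genes. Of the annotated exon bases of Bmp4, 31.1% lie in exons of other genes, all on the opposite strand. The libraries were made with a stranded kit, but the strand setting of the counting is not given in the sources used here, so reads of Bmp4 and of these antisense genes cannot be told apart.

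Bmp2 (ENSMUSG00000027358.7; chr2:133394079-133404816, plus strand), the closest relative of Bmp4 among the ligands, was hardly transcribed. It had 5.2, 16.5 and 18.3 normalized counts in the WT libraries, from 5, 17 and 18 reads, and was listed at 0 in all 3 GαqKO libraries. WT replicate 1 was the lowest of the WT libraries and still above every GαqKO library. With the floor set at 3 counts in each library, its level in GαqKO libraries was at least 4.45-fold below that in WT. Floors and intervals from reads cover counting error only. The summed level of both ligand genes, in normalized counts per kilobase (kb) of merged exons, was 73.8, 83.3 and 80.5 in the WT libraries and 23.6, 19.4 and 19.8 in the GαqKO libraries, and nearly all of it was Bmp4.

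Bmpr1a (ENSMUSG00000021796.16; chr14:34132687-34225379, minus strand) encodes the type I receptor for BMP2 and BMP4. Its normalized counts were 1852, 1727 and 1896 in WT and 1441, 1390 and 1387 in GαqKO libraries. The groups did not overlap, but the step between them was small. From 1825 ± 87.7 to 1406 ± 30.7 (SD, n = 3), Bmpr1a fell by a log2 fold change of -0.38 (SE 0.049, 95% confidence interval -0.48 to -0.27, adjusted p = 1.42e-05 in limma). Other genes, all on the opposite strand, share 9.47% of its exon bases.

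Bmpr2 (ENSMUSG00000067336.7; chr1:59802544-59918173, plus strand) encodes the type II receptor, which activates the type I receptor. It had 1795, 1777 and 2113 normalized counts in WT and 1363, 1382 and 1291 in GαqKO libraries. WT replicate 3 stood above the other WT libraries, and all GαqKO libraries were below all WT libraries. The log2 fold change was -0.49 (SE 0.064, 95% confidence interval -0.63 to -0.35, adjusted p = 1.34e-05 in limma), from 1895 ± 189.1 to 1345 ± 47.8 (SD, n = 3). The sum of both receptor genes per kb of exons was between 321 and 361 in WT and between 250 and 261 in GαqKO libraries, so the receptors remained well transcribed in every library.

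Grem1 (ENSMUSG00000074934.4; chr2:113576509-113589000, minus strand) encodes gremlin 1, which binds BMP2 and BMP4 and blocks them. Its normalized counts were 359.2, 341.0 and 333.9 in the WT libraries and 28361, 27473 and 29633 in the GαqKO libraries. The spread within each genotype was a few percent of the mean, and the gap between the genotypes was far wider. With means of 344.7 ± 13.1 and 28489 ± 1085 (SD, n = 3), Grem1 rose by a log2 fold change of 6.36 (SE 0.046, 95% confidence interval 6.27 to 6.46, adjusted p = 4.54e-18 in limma), the 44th largest rise of the 14096 tested genes. Ranked by normalized count within a library, Grem1 was gene 6743, 6931 and 6995 in WT replicates 1, 2 and 3 and gene 16, 17 and 12 in the GαqKO replicates. Grem1 was thus among the most abundant few genes in the GαqKO libraries. There it took 0.241% to 0.260% of all normalized counts, against 0.00292% to 0.00314% in WT. No other annotated gene overlaps its exons.

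Fst (ENSMUSG00000021765.10; chr13:114588731-114595521, minus strand) encodes follistatin, which binds activins most tightly and some BMPs less so. It had 13.6, 24.3 and 20.4 normalized counts in WT and 573.7, 574.7 and 528.7 in GαqKO libraries. The gene was scarce in every WT library and well above that in every GαqKO library. Fst rose by a log2 fold change of 4.81 (SE 0.19, 95% confidence interval 4.41 to 5.21, adjusted p = 4.71e-11 in limma), from 19.4 ± 5.4 to 559.0 ± 26.3 (SD, n = 3), which was the 124th largest rise. Its standard error was the widest of the 7 tested genes, and its WT values rested on 13, 25 and 20 reads.

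Nog (ENSMUSG00000048616.5; chr11:89191464-89193158, minus strand), the gene of noggin, which covers the receptor binding faces of BMPs, did not rise as Grem1 and Fst did. It had 24.0, 21.4 and 6.1 normalized counts in the WT libraries and 0, 1.2 and 0 in the GαqKO libraries. WT replicate 3 was well below the other WT libraries, and all GαqKO libraries were lower still. Over the 5 libraries with recovered reads there were 51 reads in WT and 1 in GαqKO, a ratio of GαqKO to WT, scaled for depth, of 0.0302 with an exact 95% counting interval from 0.000749 to 0.176. Nog was under the filter on low values and has no test.

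Fstl1 (ENSMUSG00000022816.12; chr16:37597105-37656876, plus strand) encodes a secreted glycoprotein of the follistatin family that has been described as a BMP4 antagonist and is made in quantity by fibroblasts. Its normalized counts were 7120, 7064 and 6803 in WT and 3711, 3870 and 3840 in GαqKO libraries. Both sets were tight and far apart. Fstl1 fell by a log2 fold change of -0.88 (SE 0.04, 95% confidence interval -0.96 to -0.79, adjusted p = 2.77e-10 in limma), from 6996 ± 169.2 to 3807 ± 84.4 (SD, n = 3). It was past the adjusted p but not past the fold threshold, in the direction opposite to Fst.

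Bmp1 (ENSMUSG00000022098.11; chr14:70711689-70758178, minus strand) encodes the procollagen C-proteinase, which also cleaves the BMP antagonist chordin and so frees ligand. It had 1102, 1007 and 1216 normalized counts in WT and 847.0, 836.0 and 786.5 in GαqKO libraries. The lowest WT library was above the highest GαqKO library. The log2 fold change was -0.43 (SE 0.068, 95% confidence interval -0.57 to -0.28, adjusted p = 8.32e-05 in limma), from 1108 ± 104.6 to 823.2 ± 32.2 (SD, n = 3).

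**Figure D2:**
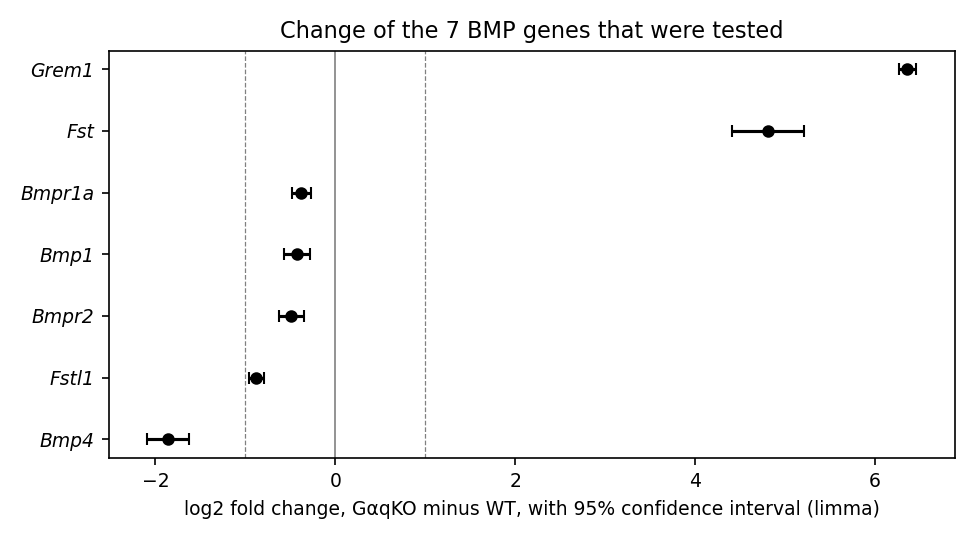
Log2 fold change (GαqKO minus WT, limma) of the 7 tested BMP genes, with bars for the 95% confidence interval and dashed lines at -1 and 1, the fold threshold. Grem1 at 6.36 and Fst at 4.81 lie right of the upper line, Bmp4 at -1.86 left of the lower line, and the other 4 genes between -0.88 and -0.38.

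Set against each other per length of merged exons, the genes changed their order. In WT the order of mean normalized counts per kb was Fstl1 at 694, Bmpr1a at 235, Bmpr2 at 105, Bmp1 at 94.9, Grem1 at 82.9, Bmp4 at 76.3, Nog at 10.1, Fst at 4.11 and Bmp2 at 2.88. The ranges of Bmpr2 and Bmp1, of Bmp1 and Grem1, of Nog and Fst, and of Fst and Bmp2 overlapped. The order of these neighbours rests on their means, and differences between genes were not tested. In the libraries labelled GαqKO the order was Grem1 at 6850, Fstl1 at 377, Bmpr1a at 181, Fst at 118, Bmpr2 at 74.5, Bmp1 at 70.5, Bmp4 at 20.9, Nog at 0.227 and Bmp2 at 0, and only the ranges of Bmpr2 and Bmp1 and of Nog and Bmp2 overlapped. Bmp1, Bmp4, Fst and Fstl1 have many annotated exon bases outside their canonical transcript. The middle places of both orders therefore depended on the length used, whereas the first gene of each order was the same with either length.

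The level of Grem1 over that of Bmp4, per kb of exons, was 1.19, 1.03 and 1.05 in the WT libraries, and in the GαqKO libraries it was 289, 340 and 360. The ratio depended on the length used. With canonical transcript lengths it was 0.633, 0.548 and 0.559 in WT, with Bmp4 above Grem1, and 154, 181 and 192 in GαqKO libraries. With either length the WT and GαqKO ratios were far apart. The 3 antagonist genes Grem1, Nog and Fst summed to 103, 99.8 and 88.2 normalized counts per kb in WT and 6940, 6730 and 7240 in GαqKO libraries. Grem1 made up 82.2% to 91.0% of this sum in WT and 98.2% to 98.5% in GαqKO libraries, so most of it was Grem1 in both. Fstl1, described as a BMP4 antagonist, is not in this sum. Its mean per kb was 694 in WT, above the sum, and 377 in GαqKO libraries. These are ratios of transcripts and not of proteins. Of all normalized counts, the 9 genes together took 0.108% to 0.112% in WT and 0.313% to 0.330% in GαqKO libraries.

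**Figure D3:**
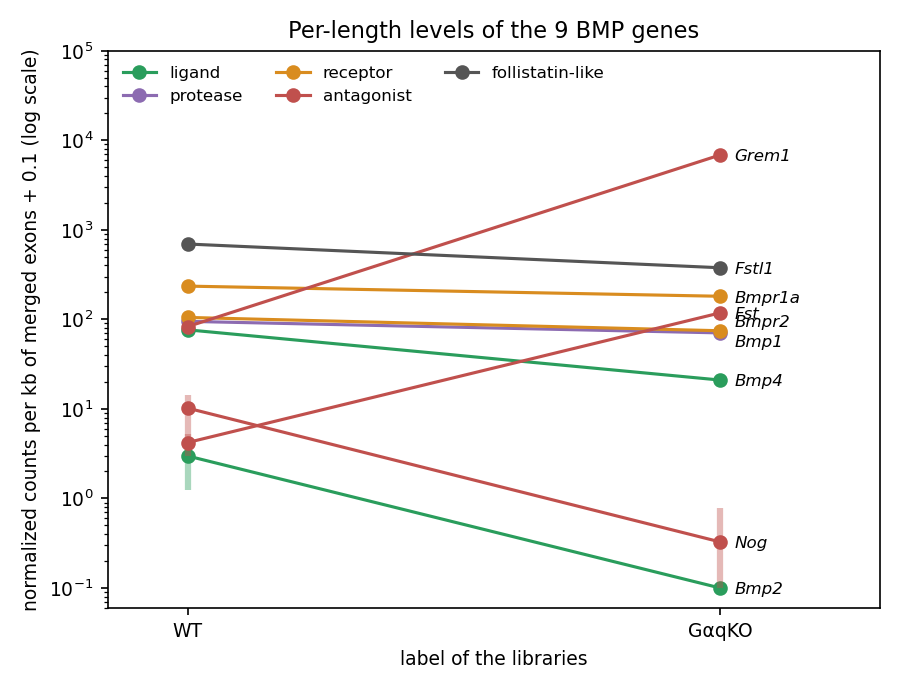
Mean normalized counts per kb of merged exons + 0.1 (log axis) of the 9 BMP genes in WT and GαqKO libraries (n = 3 each). A line, coloured by role, joins the means of each gene, and pale bars run from the lowest to the highest library. Grem1 lies at 82.9 among the middle genes in WT and at 6850 above all others in GαqKO, while Bmp4 goes from 76.3 to 20.9.

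Of the nearest protein-coding genes on each side of each BMP gene, only Fmn1 passed both thresholds, and Phyhip beside Bmp1 and Ddhd1 beside Bmp4 were higher at the adjusted p alone. Fmn1, the gene of formin 1, lies 29.4 kb from Grem1, and regulatory elements of Grem1 in the limb bud are known to lie within it. It had 1432, 1666 and 1758 normalized counts in WT and 678.9, 685.7 and 650.5 in GαqKO libraries. All GαqKO libraries were lower, so Fmn1 fell where Grem1 rose, with a log2 fold change of -1.26 (SE 0.069, adjusted p = 1.91e-09 in limma). Scg5, 17.7 kb from Grem1 on the other side, was not called, at 23.2 ± 3.2 and 16.6 ± 6.7 normalized counts (SD, n = 3) with an adjusted p of 0.191 in limma. Bmp1, Bmp4 and Bmpr1a share chromosome 14, but the nearest pair, Bmp4 and Bmpr1a, is 12.4 megabases apart.

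The other genes of the pathway were counted over 8 lists with 86 genes, of which 50 passed the filter. At the adjusted p (limma) 20 were higher and 22 were lower in GαqKO libraries, and past both thresholds 12 were higher and 10 lower. These were 40% and 44% of the 50 at the adjusted p, against 31.8% and 34.1% of all tested genes, and 24% and 20% past both thresholds, against 10.2% and 10.5%. The median log2 fold change of the 50 was 0.02, against -0.012 over all tested genes. Of the 50, Bmp6, Gdf5, Inhbb, Amhr2, Bambi, Chrdl1, Fstl3, Id4 and Dlx3 passed the filter only through the genotype where they were high. A difference was thus built into their selection, and their calls support nothing. For these genes values are given without a p. The shares above include such genes, as do those of all tested genes. Fstl4 passed the filter through libraries of both genotypes and was not called. The pathway genes thus moved in both directions, and the lists are described by the role of their genes.

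Of 17 other BMP and GDF ligand genes, 2 passed the filter, Bmp6 and Gdf5, both only through the GαqKO libraries, so their higher level there was fixed by the filter and is a description. Their median log2 fold change was 3.68, or 2.84 with Gdf5 set to its bound. Bmp6, the gene of another BMP ligand, had 6.3, 1.9 and 5.1 normalized counts in WT and 52.6, 64.7 and 55.4 in GαqKO libraries. The means were 4.4 ± 2.2 and 57.6 ± 6.4 (SD, n = 3), the direction opposite to Bmp4. Gdf5, a joint and cartilage ligand, was listed at 0 in WT and had 13.3 ± 1.1 (SD, n = 3), at least 4.45-fold higher. Of its exon bases, 40.34% lie in exons of a gene on the opposite strand. The other 15 ligand genes, Bmp7 among them, had means of at most 8.4 normalized counts in either genotype.

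Of 7 genes of activins, inhibin, myostatin and GDF11, several of which follistatin binds, 4 passed the filter, Inhbb only through the WT libraries, and past both thresholds 1 was higher and 2 were lower, or 25% and 50% against 10.2% and 10.5% of all tested genes. Inhba, whose product dimerizes to activin A, the main target of follistatin, had 124.3, 148.6 and 150.6 normalized counts in WT and 12.2, 13.9 and 20.1 in GαqKO libraries. It was low in each GαqKO library and fell by a log2 fold change of -3.14 (SE 0.22, adjusted p = 2.97e-08 in limma) as Fst rose. Inhbb went from 13.8 ± 1.1 to 0.6 ± 1.1 normalized counts, with 41 reads in 3 WT libraries and 2 in 2 GαqKO libraries. Inha, whose product pairs with these subunits to form inhibins, rose by a log2 fold change of 1.13 (SE 0.13, adjusted p = 3.92e-06 in limma), from 97.9 ± 5.2 to 216.3 ± 29.4 (SD, n = 3). Of its exon bases, 26.77% lie in exons annotated on the opposite strand. Gdf11 had the most normalized counts of the list and fell by a log2 fold change of -0.41 (adjusted p = 7e-06 in limma), from 1241 ± 32.4 to 935.6 ± 21.0. The median log2 fold change of the 4 genes was -1.78, or -1.31 with Inhbb set to its bound.

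Of 10 other type I and type II receptor genes of the family, 7 were tested, with 2 higher (28.6%, against 31.8% of all tested genes) and 3 lower (42.9%, against 34.1%) at the adjusted p and a median log2 fold change of -0.10. The lower ones were Acvr1, Acvr1b and Acvr2a, none of them past the fold threshold. Of the exon bases of Acvr2a, 30.54% lie in exons annotated on the opposite strand. Tgfbr2, the type II receptor for TGF-β and the gene with the most normalized counts of the list, rose from 1082 ± 26.0 to 2409 ± 103.8 normalized counts (SD, n = 3; log2 fold change 1.15, adjusted p = 1.14e-10 in limma). Amhr2, the receptor for anti-Müllerian hormone and the other higher gene, had 9.7 ± 0.8 and 38.2 ± 4.6 normalized counts (SD, n = 3) and entered the test only through the GαqKO libraries. Neither of them is known as a receptor of BMP2 or BMP4.

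Of 7 co-receptor genes 6 were tested, with 4 higher (66.7%, against 31.8% of all tested genes) and 1 lower (16.7%, against 34.1%) at the adjusted p and a median log2 fold change of 0.31. Tgfbr3, the gene of betaglycan, which presents TGF-β2, inhibin and BMPs to their receptors, had 80.4, 97.1 and 104.8 normalized counts in WT and 1087, 1034 and 970.8 in GαqKO libraries. It rose about as evenly in all GαqKO libraries, by a log2 fold change of 3.45 (SE 0.1, adjusted p = 3.67e-12 in limma). Rgmb, a membrane-anchored BMP co-receptor, rose from 355.1 ± 9.8 to 1253 ± 24.9 (SD, n = 3; log2 fold change 1.82, adjusted p = 6.67e-12 in limma). Neo1, which binds the RGM proteins and had the most normalized counts of the list, rose by a log2 fold change of 0.33 (adjusted p = 6.33e-05 in limma). Bambi, a pseudoreceptor that dampens the signal and the lower gene of the list, had 17.5 ± 2.5 and 6.9 ± 5.1 normalized counts (SD, n = 3) and entered the test only through the WT libraries.

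Of 18 other secreted antagonists and modulators 8 were tested, with 1 higher (12.5%, against 31.8% of all tested genes) and 5 lower (62.5%, against 34.1%) at the adjusted p and a median log2 fold change of -0.61. Past both thresholds 3 were lower (37.5%, against 10.5% of all tested genes). Among these, Chrdl1 and Fstl3 entered the test only through the WT libraries. Chrd, the gene of chordin, had 13.8 normalized counts in WT and 3.1 in GαqKO libraries, under the filter. Bmper, a secreted BMP-binding protein, had 931.4, 960.7 and 894.7 normalized counts in WT and 382.2, 351.5 and 323.3 in GαqKO libraries. It fell in each, by a log2 fold change of -1.40 (SE 0.072, adjusted p = 8.97e-10 in limma). Chrdl1, a chordin-like antagonist, went from 31.6 ± 2.4 to 2.3 ± 2.5 normalized counts, and Fstl3, a follistatin-like binder of activins, from 26.6 ± 0.6 to 0.3 ± 0.6 (SD, n = 3 each). Of the exon bases of Fstl3, 47.13% lie in exons of a gene on the opposite strand. Twsg1, a chordin cofactor and the gene with the most normalized counts of the list, rose by a log2 fold change of 0.35 (adjusted p = 1.56e-05 in limma). Outside Grem1 and Fst, no antagonist gene tested was higher past both thresholds.

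Among the other tolloid proteases and their enhancers, 2 of 4 genes were tested and neither was past both thresholds, with a median log2 fold change of -0.32. Pcolce, which enhances the procollagen cleavage by BMP1, rose by a log2 fold change of 0.23 (adjusted p = 0.00055 in limma), while Pcolce2 fell by -0.88 (adjusted p = 4.67e-08 in limma). The other tolloid genes, Tll1 and Tll2, were under the filter.

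All 11 genes of SMAD proteins and their inhibitors were tested, with 4 higher (36.4%, against 31.8% of all tested genes) and 5 lower (45.5%, against 34.1%) at the adjusted p and a median log2 fold change of -0.13. Smad6, the inhibitory SMAD of the BMP branch, had 452.1, 482.8 and 488.6 normalized counts in WT and 212.2, 200.0 and 213.5 in GαqKO libraries. It fell in every GαqKO library, by a log2 fold change of -1.18 (SE 0.08, adjusted p = 1.61e-08 in limma). Smad9, which encodes a SMAD that BMP receptors phosphorylate, fell from 184.4 ± 33.7 to 89.8 ± 8.6 (SD, n = 3; log2 fold change -1.02, adjusted p = 4.39e-05 in limma), while Smad1 rose by a log2 fold change of 0.19 (adjusted p = 0.0092 in limma) and Smad5 was not called. Smurf1, a ubiquitin ligase for SMAD1 and SMAD5 and the gene with the most normalized counts of the list, rose by a log2 fold change of 0.52 (adjusted p = 1.35e-07 in limma).

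Of 12 genes known as BMP targets, 10 were tested and moved in both directions, with 5 higher (50%, against 31.8% of all tested genes) and 4 lower (40%, against 34.1%) at the adjusted p and a median log2 fold change of 0.55. Past both thresholds 5 were higher (50%, against 10.2% of all tested genes) and 2 lower (20%, against 10.5%). Among these, Id4 and Dlx3 entered the test only through the genotype where they were high. Id4 was at the floor in WT, with 1.0, 1.9 and 1.0 normalized counts, and had 2703, 2846 and 2625 in GαqKO libraries. Id1, with the most normalized counts of these targets, rose from 2362 ± 242.9 to 5748 ± 232.7 (SD, n = 3; log2 fold change 1.29, adjusted p = 5.77e-10 in limma), whereas Id2 fell from 1123 ± 120.9 to 215.7 ± 23.6 (log2 fold change -2.38, adjusted p = 6.81e-11 in limma) and Id3 fell by a log2 fold change of -0.42 (adjusted p = 2.53e-05 in limma). The Id genes, which encode inhibitors of helix-loop-helix transcription factors and which serum and other signals also control, thus did not move one way. Of the exon bases of Id2, 36.21% lie in exons annotated on the opposite strand. Of the homeobox targets, Msx1 rose from 119.1 ± 17.8 to 405.5 ± 13.2 (log2 fold change 1.77, adjusted p = 1.2e-08 in limma), and Dlx3 went from 255.5 ± 13.4 to 1.0 ± 0.9, with 758 reads in 3 WT libraries and 3 in 2 GαqKO libraries. Hey1, a transcription factor that Notch also induces, rose from 45.6 ± 6.1 to 280.4 ± 14.9 (log2 fold change 2.60, adjusted p = 1.79e-09 in limma).

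**Figure D4:**
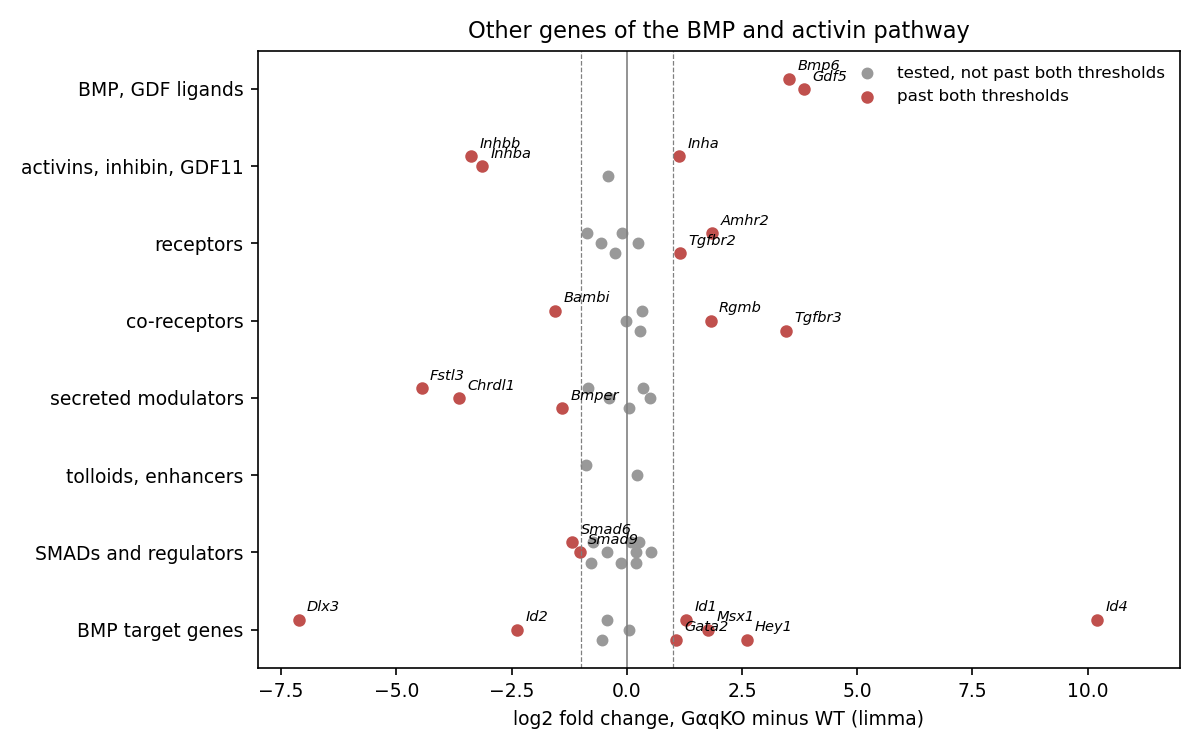
Log2 fold change (GαqKO minus WT, limma) of the 50 tested genes in the 8 lists of other pathway genes, with 1 point per gene, red where both thresholds were passed and dashed lines at -1 and 1. Every list with more than 2 tested genes holds points on both sides of 0, and Id4 at 10.21 and Dlx3 at -7.12, each at the floor in a genotype, are the extremes.

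Markers of cell types moved with the same contrast, and their part in the results above was not tested. Of 10 fibroblast markers, Col1a1, Col1a2, Vim and Fn1 were abundant in all libraries and the list summed to between 84228 and 89979 normalized counts in WT and between 62439 and 65643 in GαqKO libraries. Col1a1 fell from 16671 ± 1168 to 5774 ± 272.1 (SD, n = 3; log2 fold change -1.53, adjusted p = 2.11e-11 in limma). Col1a2, Col3a1, Vim and Fn1 were lower and Pdgfrb was higher in GαqKO libraries at the adjusted p alone. Pdgfra and Dcn, which mark many fibroblasts, had at most 21.9 and 35.5 normalized counts in a WT library against at least 2274 and 1604 in a GαqKO library, Thy1 was at the floor in WT, and Fap was at the floor in both. The 6 epithelial markers summed to between 515.0 and 540.9 in WT and between 10.1 and 23.1 in GαqKO libraries, with Cdh1 at 235.1 to 241.2 and Krt14 at 253.5 to 261.0 in WT, and Krt5 at the floor in both. Sox9 of the 5 chondrocyte markers rose by a log2 fold change of 0.62, while Col2a1, at 5.4 ± 0.4 and 1.6 ± 1.5, and Matn1, at 3.1 ± 2.8 and 0 (SD, n = 3), were lower in all GαqKO libraries, and Acan and Col10a1 were at the floor in both genotypes. The 5 osteoblast markers summed to between 4.1 and 9.4 in WT and between 32.9 and 49.7 in GαqKO libraries. The gap came from Dmp1, at 0 in WT and 35.2 ± 10.1 in GαqKO libraries, while Bglap, Alpl and Sp7 had means of at most 5.1, Sp7 with the lower mean in GαqKO libraries, and Ibsp was listed at 0. The 5 endothelial markers summed to between 14.6 and 26.1 in WT and between 17.8 and 39.3 in GαqKO libraries, and the 5 skeletal muscle markers to between 11.2 and 18.5 and between 12.7 and 17.1, with Myod1, Myog and Myf5 at the floor in both. The 5 immune markers, mostly Cd68, summed to between 104.4 and 115.0 in WT and between 69.5 and 102.9 in GαqKO libraries with Itgam at 0 in all. The 5 adipocyte markers summed to at most 4.2 in WT and 30.0 in GαqKO libraries. That gap came from Fabp4, at 1.0 ± 1.0 and 25.2 ± 2.7 (SD, n = 3), while Adipoq, Plin1, Cidec and Lep were at the floor in both. In bulk RNA, fewer cells that transcribe a gene and less of its RNA in each cell cannot be told apart, so a difference in Grem1 or Bmp4 can be either.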

How the data were processed

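Poly-A RNA of WT and GαqKO MEFs, 3 biological replicates each, was sequenced in paired-end mode. Per the methods, reads were aligned to GRCm39 by Rbowtie2, featureCounts of Rsubread counted them on GENCODE release 32, and DESeq2 followed. The table deposited by the authors holds normalized counts, a signal in which each library's counts are divided by its size factor. Tool versions and the strand setting of the counting are not given in the sources used here. In 5 libraries 100.0% of nonzero values were whole multiples of the worth of 1 read (tolerance 0.02 steps), and the reads so recovered entered the count tests, while GαqKO replicate 3 did not.

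Symbols and positions were taken from GENCODE release 39, which matched 56310 of 56953 identifiers (98.9%). Promoters were from RefSeq on GRCm38.p6, which held 5 of the 9 genes (Bmp1, Bmp2, Nog and Fst had none in the table). Fold changes are on the log2(value + 1) scale, which understates changes of low genes. Genes that reached 10 normalized counts in 3 libraries or more were fitted in limma with a trend, without covariates, and adjusted by Benjamini-Hochberg. A genotype with at most 3 counts in each library was treated as at the floor. The 9 genes and the lists were chosen with earlier results of these data known. From each pathway list the text names up to 3 genes in each direction past both thresholds, by size of change, whose mean over the 6 libraries was 20 normalized counts or more, and the most abundant gene; Gnaq, Gna11 and the neighbours past both thresholds are named too. Gdf5, Inhbb, Bambi, Chrdl1, Fstl3, the genes given only as not called, under the filter or past the adjusted p alone, and the single markers lie outside this rule and were named after their values were seen. Replicates of a genotype differed by more than counting noise. Scripts were tested on simulated data. The alternatives were another scaling, filter, pseudocount and prior, a replicate block, edgeR and DESeq2 on recovered reads, and each library left out in turn. Tests ran in R 4.3.3 (DESeq2 1.42.0, edgeR 4.0.16, limma 3.58.1) and tables and figures in Python 3.11.15 (matplotlib 3.10.9, pandas 2.3.3, scipy 1.17.1, numpy 2.4.6).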

Additional observations from a re-analysis of the deposited data

How the results depend on the processing

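Of the 7 tested BMP genes, each kept its direction and its adjusted p under 0.05 in all 16 alternatives, with log2 fold changes from 6.34 to 6.39 for Grem1, 4.55 to 4.99 for Fst, -1.95 to -1.80 for Bmp4, -0.90 to -0.86 for Fstl1, -0.53 to -0.41 for Bmpr2, -0.49 to -0.36 for Bmp1 and -0.41 to -0.35 for Bmpr1a, and a highest adjusted p of 0.00691 for Bmp1. Over all comparisons 308 values under an alternative kept their direction, call and place, or a count within 1.5 times, 14 moved and 2 passed the threshold only there. Without a filter on low values Bmp2 (log2 fold change -3.68) and Nog (-3.62) were called in limma, which made 3 BMP genes lower past both thresholds. Bmp2 was at 0 in all GαqKO libraries and entered that fit only through WT, and Nog had nearly all its reads in WT. These 2 calls therefore support nothing. With at least 10 normalized counts asked of every library, fewer genes were tested, and past both thresholds 831 genes were higher, 765 were lower and 5 pathway genes were lower. With lengths of canonical transcripts, a choice made after seeing the data, the places in WT were 3 for Bmp1, 4 for Bmpr2, 5 for Bmp4, 6 for Grem1, 7 for Fst and 8 for Nog, and in GαqKO 3 for Fst, 4 for Bmpr1a, 5 for Bmp1 and 6 for Bmpr2. Leaving out each library in turn gave 1394 to 1447 genes higher and 1464 to 1506 lower past both thresholds, always with 2 BMP genes higher and 1 lower, and with 11 to 12 pathway genes higher and 8 to 10 lower.

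The replicate numbers pair nothing that the labels name, and the deviations of same-numbered libraries correlated at -0.045, -0.148 and -0.064. With a replicate block in the fit, 1421 genes were higher and 1478 lower past both thresholds, and the BMP genes kept their calls, with adjusted p of 0.000515 for Bmp1 and 4.08e-13 for Grem1 in limma. TMM scaling shifted the median of all genes by 0.009 and upper quartile scaling by 0.022 (log2). Depth limits Bmp2, Nog and the WT values of Fst, each with 25 reads or fewer in a library.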
